A study of Mus musculus with 10 samples.

Results

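Expression of 10 genes for scavenger receptors that bind oxidized low-density lipoprotein (ox-LDL) or are grouped with them was examined in mouse peritoneal macrophages. The genes were listed by name (Msr1, Cd36, Olr1, Scarb1, Scarb2, Marco, Cd68, Scarf1, Stab1 and Cd163), and all 10 were found among the 29700 gene entries of the count table. RNA was sequenced in bulk from macrophages of C57BL/6 mice aged 8 weeks, elicited with thioglycollate and washed from the peritoneal cavity. There were 5 control libraries, whose cells are labelled untreated, and 5 ox-LDL libraries, whose cells were primed with LPS (100 ng/ml), a bacterial endotoxin, and then given ox-LDL (100 µg/ml) for 16 h. The series describes 5 biological replicates in each group. A figure legend of the study leaves it unclear whether the controls received LPS as well. The labels were followed, under which the effects of LPS and of ox-LDL cannot be told apart. Total counts were 19693029 to 20283527 in the control libraries and 18826137 to 20026801 in the ox-LDL libraries, so depth was nearly even.

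Scavenger receptors are surface or endosomal proteins that recognise modified lipoproteins, dying cells and microbes. They are not shut off by the cholesterol that they bring in, and uptake of ox-LDL through class A receptors and CD36 is the textbook route by which a macrophage becomes a foam cell. The family is held together by ligands and not by structure. Class A receptors carry collagen-like stems (Msr1, Marco), class B receptors cross the membrane at both ends (Cd36, Scarb1, Scarb2), and the rest include a mucin-like protein (Cd68), a C-type lectin (Olr1, also called LOX-1), EGF-repeat proteins (Scarf1, Stab1) and a cysteine-rich protein (Cd163).

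The sequences just upstream of Olr1, Marco and Cd163 are shown because these genes had the largest fitted changes among the 10. Each is the 250 bases before the annotated start in RefSeq's table for the build GRCm38.p6, written 5′ to 3′ on the gene's strand, with matches to the searched motifs in capitals. The table holds 7 of the 10 genes, without Msr1, Scarb1 and Scarf1. The Olr1 stretch is chr6:129507166-129507415 on the minus strand, that of Marco is chr1:120505025-120505274 on the minus strand, and that of Cd163 is chr6:124304401-124304650 on the plus strand.
Olr1: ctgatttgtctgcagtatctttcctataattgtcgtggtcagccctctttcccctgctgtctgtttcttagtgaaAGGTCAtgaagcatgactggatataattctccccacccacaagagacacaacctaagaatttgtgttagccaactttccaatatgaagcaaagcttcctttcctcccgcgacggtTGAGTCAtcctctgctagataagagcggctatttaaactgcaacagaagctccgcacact
Marco: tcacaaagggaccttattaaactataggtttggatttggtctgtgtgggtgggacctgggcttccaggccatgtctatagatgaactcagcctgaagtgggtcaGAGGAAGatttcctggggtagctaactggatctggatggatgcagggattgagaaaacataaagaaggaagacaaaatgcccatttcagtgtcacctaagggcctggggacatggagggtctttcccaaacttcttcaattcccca
Cd163: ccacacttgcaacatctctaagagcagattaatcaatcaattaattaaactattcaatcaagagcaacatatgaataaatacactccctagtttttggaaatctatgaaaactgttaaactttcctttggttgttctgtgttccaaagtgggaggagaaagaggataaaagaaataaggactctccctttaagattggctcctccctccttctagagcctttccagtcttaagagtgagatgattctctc
In the Olr1 stretch the capitals mark AGGTCA, the core that many nuclear receptors bind, whose match begins 175 bases before the start, and TGAGTCA, a match to the AP-1 motif TGANTCA, 60 bases before it. The AP-1 motif was found in the same window of 6.75% of 32851 promoters, and AGGTCA in 14% of them. The Marco stretch holds GAGGAAG, a motif of the myeloid factor PU.1, 146 bases before the start, as do 10.6% of promoters. None of the 7 searched motifs was found in the Cd163 stretch. Of the other 4 genes, Cd36 held AGGTCA, Cd68 held the AP-1 motif and Stab1 held the NF-kB motif GGGANNTTC, which is found in 3.23% of promoters. Scarb2 and Cd68 held the antioxidant response core TGANNNNGC, found in 35.2%, and in Cd68 a match overlapped the AP-1 match. The interferon response core GAAANNGAA (7.13% of promoters) and the C/EBP motif TTGCNNCAA (1.74%) were in none of the 7. Both strands were searched, and a match of letters is a description and not a binding site.

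Some libraries differed in ways that the groups do not explain. In control replicates 1 and 4 and ox-LDL replicate 2, expression relative to the mean of the same group was lower for longer genes (Spearman correlation with gene length across genes of -0.595, -0.491 and -0.657, against 0.0443 to 0.537 in the other 7), and ox-LDL replicate 2 had the lowest scaling factor, 0.593 against 0.837 to 1.19 in the rest. The count of receptors called was the same without those 3 libraries, and also without control replicate 5 and ox-LDL replicate 2 (3 higher and 1 lower each time). Without those 3 libraries, 859 of all 13192 genes tested were called higher and 651 lower. In the other fit 1843 of 12858 genes were called higher and 1483 lower. The receptor called lower was Cd163 each time, whose call is no support of its own, as explained below.

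Olr1, Marco and Scarf1 rose and Cd163 fell in the ox-LDL group, and the other 6 genes did not pass an adjusted p of 0.01 in edgeR's quasi-likelihood test with Benjamini-Hochberg adjustment. The 4 genes also passed an absolute log2 fold change of 2. Among all 12654 genes tested, 9.4% were called higher and 5.35% were called lower by the same rule, against 3 and 1 of the 10 receptors. The receptor called lower, Cd163, passed the filter on low counts only through the control libraries. At an adjusted p below 0.05 the receptors called were 3 higher and 2 lower, where 16.2% and 10.4% of all genes were called. Group ranges did not overlap for 3 receptors that were higher in the ox-LDL group and 2 that were lower, Scarb1 and Cd163. Among all genes this held for 11.6% and 9.11%. The median log2 fold change of the 10 receptors was 0.42, also with Cd163 set to its bound given below, against 0.0966 over all genes tested. In exact permutation tests of the mean log2(CPM + 1), two-sided and not adjusted, Olr1, Marco, Scarf1 and Scarb1 reached p = 0.00794. This is the smallest value that 5 against 5 libraries allow. Cd163 reached the same value, but it was kept by the filter only through the group where it is high. Its permutation p and its lack of overlap are therefore no support of their own. In the same exact permutation tests p was 0.0238 for Scarb2, 0.0556 for Msr1, 0.0635 for Cd36, 0.103 for Cd68 and 0.373 for Stab1. Levels are given as CPM, that is, counts brought to the same library size after TMM scaling. The plot of every library shows the spread behind these counts.

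**Figure D1:**
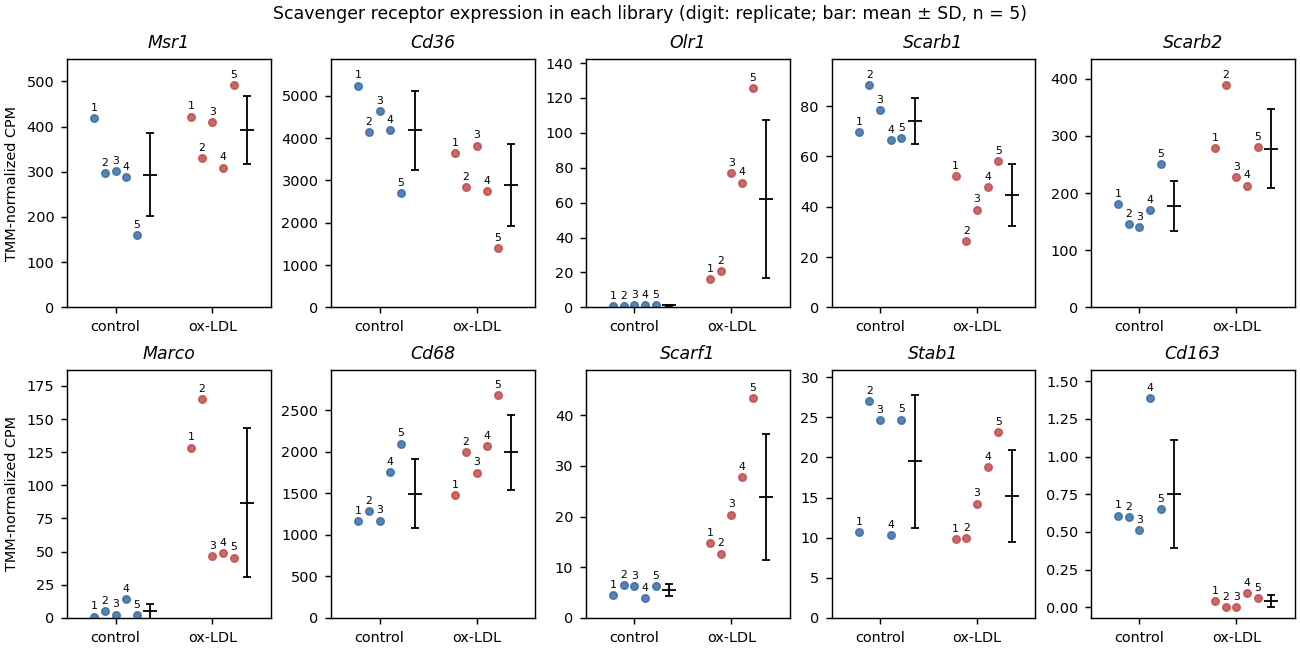
Levels of the 10 receptor genes in TMM-normalized CPM (vertical axes, linear) in the 5 control (blue) and 5 ox-LDL libraries (red); digits are replicate numbers and bars are the mean ± SD. Groups are apart for Olr1, Marco, Scarf1, Scarb1 and Cd163, and overlap for the other 5 genes.

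Olr1 encodes the lectin-like receptor best known for ox-LDL uptake in endothelial cells, and it lies at chr6:129435264-129457183 on the minus strand of the build NCBIM37 (mm9). Its levels were 0.664, 0.642, 1.28, 1.44 and 1.48 CPM in control replicates 1 to 5 and 16.0, 20.9, 76.7, 71.4 and 125 CPM in ox-LDL replicates 1 to 5. Every ox-LDL library stood above every control library, with replicates 1 and 2 lowest among the treated. Mean levels were 1.10 ± 0.416 and 62.1 ± 45.1 CPM (SD, n = 5), a log2 fold change of 5.81 (SE 0.62, 95% interval 4.45 to 7.16, adjusted p = 6.16e-05). In counts, the control libraries held 12 to 34 reads of Olr1 and the ox-LDL libraries 244 to 2101.

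Marco encodes a class A receptor that binds bacteria and particles, at chr1:122371115-122401661 on the minus strand of NCBIM37. The control libraries held 1.05, 5.05, 2.57, 14.5 and 1.91 CPM and the ox-LDL libraries 129, 165, 46.9, 48.8 and 45.5 CPM. Control replicate 4 was the highest control, and ox-LDL replicates 1 and 2 were the highest of all although they were the lowest treated libraries for Olr1. The log2 fold change was 4.12 (SE 0.72, 95% interval 2.55 to 5.69, adjusted p = 0.00143). It was 5.02 without control replicate 4 (adjusted p = 4.43e-04), and the call was lost when no filter on low counts was applied (adjusted p = 0.0151).

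Scarf1 encodes a class F receptor for modified LDL and dying cells first described in endothelium, at chr11:75327042-75340084 on the plus strand of NCBIM37. Its levels were 4.54, 6.55, 6.20, 3.86 and 6.26 CPM in the controls and 14.8, 12.7, 20.4, 27.7 and 43.4 CPM after ox-LDL. The groups were apart in CPM, with ox-LDL replicate 5 highest. In FPKM, which divides counts by gene length and library total, ox-LDL replicate 2 (2.68) lay just below control replicate 2 (2.70). The log2 fold change was 2.12 (SE 0.33, 95% interval 1.39 to 2.84, adjusted p = 7.34e-04), and on the log2(FPKM + 0.1) scale without a filter its adjusted p by limma was 0.0175.

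Cd163, the haemoglobin-haptoglobin receptor of resting and anti-inflammatory macrophages, was scarce in these cells and close to absent after ox-LDL. It lies at chr6:124254669-124280545 on the plus strand of NCBIM37. The control libraries held 11.0, 14.0, 12.0, 27.3 and 15.3 estimated reads, and the ox-LDL libraries 1.02, 0, 0, 2.00 and 1.00. All control libraries were above all ox-LDL libraries, and control replicate 4 was the highest. Since no ox-LDL library passed 3 counts, a floor of 3 counts in each library (on average 0.171 CPM) gives a level at least 4.39-fold lower than the control mean of 0.753 ± 0.360 CPM. The adjusted p was 6.60e-04, but a gene that passes the filter on low counts only through the group where it is high has to differ, so this value is no support of its own, and with at least 10 counts required in every library Cd163 was not tested. The fitted log2 fold change of -3.95 (SE 0.61) depends on the prior count.

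**Figure D2:**
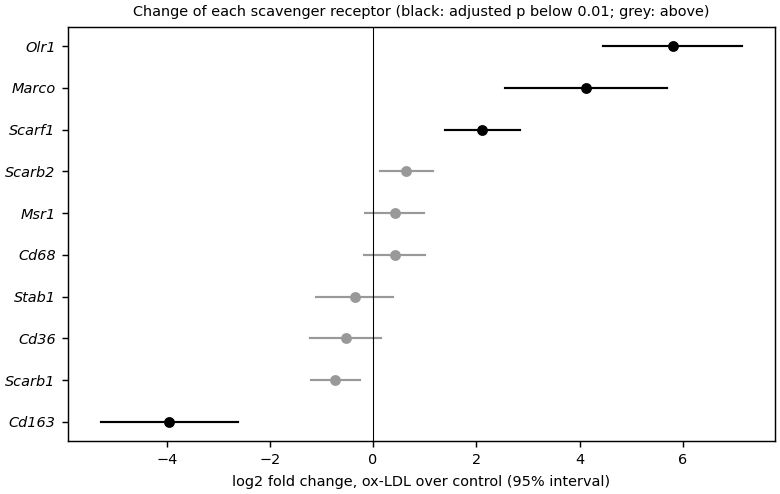
Fitted log2 fold change of each receptor gene, ox-LDL over control (horizontal axis), with its 95% interval as a line; black marks an adjusted p below 0.01. Olr1 lies at 5.81, Marco at 4.12, Scarf1 at 2.12 and Cd163 at -3.95, and the intervals of Msr1, Cd36, Cd68 and Stab1 include 0.

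Scarb1, the class B receptor SR-BI that exchanges cholesterol with HDL, was lower in each ox-LDL library than in any control but did not pass the adjusted p of 0.01. The controls held 69.6, 88.3, 78.5, 66.4 and 67.4 CPM and the ox-LDL libraries 52.2, 26.3, 38.9, 47.7 and 58.1 CPM. The gap between the groups lay between 58.1 and 66.4 CPM. Means were 74.0 ± 9.27 and 44.6 ± 12.4 CPM, a log2 fold change of -0.73 (SE 0.22, 95% interval -1.20 to -0.26, adjusted p = 0.0260). The adjusted p was 0.00775 without ox-LDL replicate 2, 0.00397 by DESeq2 and 0.00452 with the gene length trend of each library removed. It was above 0.05 with library size alone (0.0803), by limma on log2(FPKM + 0.1) without a filter (0.120), and without control replicate 2 (0.0672), control replicate 3 (0.0551) or ox-LDL replicate 3 (0.0694).

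Cd36 and Msr1 are the receptors to which most ox-LDL uptake by macrophages is credited. Cd36, also a fatty acid transporter and a target of PPARγ, was at 5243, 4151, 4640, 4190 and 2694 CPM in the controls and 3649, 2842, 3824, 2750 and 1397 CPM after ox-LDL. The ranges overlapped, with the replicate numbered 5 lowest in each group. The log2 fold change of Cd36 was -0.53 (SE 0.32, 95% interval -1.22 to 0.16, adjusted p = 0.239). Msr1, the class A receptor for acetylated and oxidized LDL, was at 419, 296, 301, 289 and 161 CPM in the controls and 422, 330, 410, 309 and 492 CPM in the ox-LDL libraries. Control replicate 1 reached the level of the treated libraries. The log2 fold change of Msr1 was 0.42 (SE 0.26, 95% interval -0.15 to 0.99, adjusted p = 0.261).

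The ratio of Cd36 to Msr1 within a library, which does not depend on how libraries are scaled, separated the groups. Taken on FPKM it was 11.4, 13.2, 15.1, 12.5 and 15.1 in the controls and 7.50, 6.34, 8.09, 7.79 and 2.27 after ox-LDL. No ox-LDL library reached the lowest control, and ox-LDL replicate 5 was far below the others. The mean log2 ratio was 3.74 ± 0.177 in the controls and 2.55 ± 0.774 after ox-LDL, a difference of -1.20, or a 2.29-fold lower ratio (two-sided exact permutation test, p = 0.00794, the smallest that 5 against 5 libraries allow). Without ox-LDL replicate 5 the difference was -0.86, and on counts in place of FPKM it was -1.04. With only the same-numbered libraries compared, 5 sign flips gave an exact p of 0.0625, the smallest that they allow. Cd36 made up 48.9 ± 11.0% of the summed FPKM of the 10 receptors in the controls and 32.6 ± 11.5% after ox-LDL, with overlapping ranges.

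The deposited counts and FPKM also give the transcript length that the authors' pipeline assumed in each library, as the count divided by FPKM and by the library total. To compare libraries, these lengths were then divided by each library's median ratio to the gene means, so the values below are rescaled. For Msr1 this implied length was 2516, 2626, 2722, 2455 and 2508 bases in the controls and 2413, 2063, 2423, 2422 and 2249 bases after ox-LDL. All ox-LDL values lay below all control values, with means of 2565 ± 108 and 2314 ± 159 bases, a difference of -9.79%. Among 6698 genes with at least 100 counts and 1 FPKM in every library, 1.05% had a length at least 5% shorter after ox-LDL with no overlap. The mean implied length of Cd36, Scarb1, Scarb2 and Cd68 differed by less than 0.4% between the groups. GENCODE's NCBIM37 annotation lists 3 Msr1 transcripts, of 1059, 1467 and 3643 bases. This measure was chosen after the values had been seen and was not tested, and part of the FPKM difference of Msr1 follows from it.

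**Figure D3:**
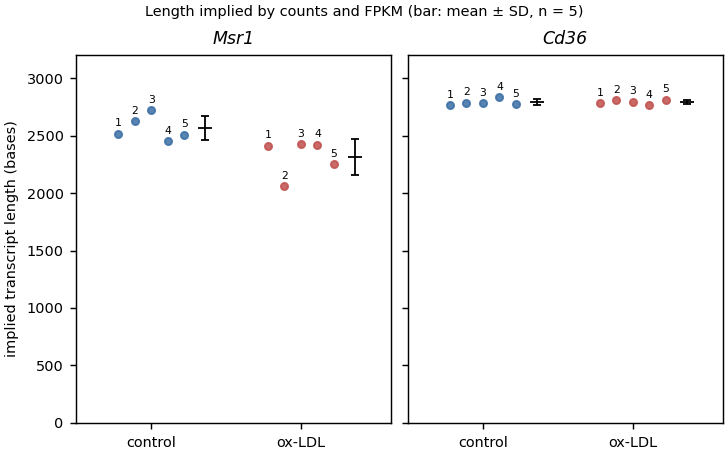
Transcript length implied by counts and FPKM (bases, from 0) for Msr1 and Cd36 in each library; bars are the mean ± SD. Msr1 lies at 2455 to 2722 bases in the controls and 2063 to 2423 after ox-LDL, whereas Cd36 lies at 2768 to 2835 in all 10 libraries.

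The remaining 3 genes overlapped between the groups. Scarb2, the lysosomal membrane protein LIMP-2 that carries glucocerebrosidase, was at 181, 145, 141, 169 and 251 CPM in the controls and 278, 389, 228, 213 and 280 CPM after ox-LDL. Only control replicate 5 reached into the ox-LDL range. Its log2 fold change was 0.65 (SE 0.24, 95% interval 0.13 to 1.16, adjusted p = 0.0626). Cd68, a lysosomal mucin used as a pan-macrophage marker, was at 1168, 1281, 1170, 1753 and 2097 CPM in the controls and 1477, 1994, 1747, 2066 and 2684 CPM after ox-LDL, a log2 fold change of 0.42 (95% interval -0.17 to 1.00, adjusted p = 0.281). Stab1, a clearance receptor for acetylated LDL and matrix fragments, was at 10.7, 27.0, 24.7, 10.4 and 24.7 CPM in the controls and 9.83, 9.93, 14.2, 18.8 and 23.2 CPM after ox-LDL. Its low controls were replicates 1 and 4, both with the length trend described above. The log2 fold change of Stab1 was -0.36 (95% interval -1.11 to 0.39, adjusted p = 0.479), and it shares 109 exon bases with Nt5dc2 on the opposite strand, where reads cannot be told apart if strand was not used.

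Per length, Cd36 and Cd68 were the most abundant of the 10 transcripts. Mean FPKM in the controls was 1566 ± 317 for Cd36 and 1461 ± 459 for Cd68, whose ranges overlapped, followed by Msr1 at 118 ± 28.6. Scarb2 (41.8 ± 12.0) and Scarb1 (33.7 ± 7.02) overlapped each other, as did neighbours among Marco (2.82 ± 2.86), Stab1 (2.76 ± 1.37) and Scarf1 (2.14 ± 0.672). Olr1 (0.36 ± 0.135) and Cd163 (0.162 ± 0.0726) closed the order and overlapped. After ox-LDL the order of means was Cd68 (1692 ± 398), Cd36 (1010 ± 501), Msr1 (159 ± 44.0), Scarb2 (55.7 ± 9.45), Marco (42.3 ± 25.5), Scarb1 (18.5 ± 7.42), Olr1 (17.5 ± 12.1), Scarf1 (8.21 ± 4.06), Stab1 (1.86 ± 0.764) and Cd163 (0.008 ± 0.00837). Cd68 and Cd36 overlapped, and so did each neighbouring pair from Scarb2 down to Scarf1. After ox-LDL the range of Marco overlapped those of Scarb2 and Scarb1, and that of Olr1 overlapped that of Scarb1, where in the controls Marco and Olr1 lay below Scarb1 without overlap.

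Among 16 other scavenger receptor genes, 7 were tested, of which 1 was called higher and 2 lower by edgeR (median log2 fold change -0.08). Over all genes tested the shares were 9.4% and 5.35%. DESeq2 called 1 higher and 3 lower (14.2% and 10% of genes with an adjusted p). By limma-voom 1 was called in each direction (9.1% and 6.33% of all genes). Cxcl16, which as a membrane protein binds ox-LDL and as a soluble one is a chemokine, rose from 29.0 to 70.6 CPM in the controls to 475 to 2110 CPM after ox-LDL (log2 fold change 4.76, SE 0.48, adjusted p = 3.95e-05). The mannose receptor Mrc1 fell by 2.24 on the log2 scale (adjusted p = 1.69e-04), from 40.3 to 75.2 CPM in the controls to 7.35 to 17.0 CPM. Colec12, a class A collectin, fell by 1.49 (adjusted p = 0.00738) although control replicate 5 (7.65 CPM) lay within the ox-LDL range, and its call was lost when any library but control replicate 5 or ox-LDL replicate 2 was left out (adjusted p 0.0103 to 0.0211).

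Among 10 genes for other lipoprotein receptors and their sorting partners, 9 were tested and 1 was called in each direction (median -0.09). By DESeq2 it was also 1 in each direction (14.2% and 10% of genes with an adjusted p). By limma-voom it was 1 in each direction too (9.1% and 6.33% of all genes). By edgeR, 9.4% of all genes were called higher and 5.35% lower. Lrp8, a receptor for apolipoprotein E and reelin, rose by 3.53 (adjusted p = 2.74e-05), and the sorting receptor Sorl1 fell by 2.12 (adjusted p = 9.39e-04). Lrp1, a large endocytic receptor for lipoprotein remnants that is also in the list of other scavenger receptors, had a log2 fold change of 0.07 (95% interval -0.68 to 0.83, adjusted p = 0.904), whose sign turned with the scaling of the libraries.

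Of 13 genes for proteins that act with CD36 at the membrane, 2 were called higher and 0 lower by edgeR (median 0.02). Over all genes tested the shares were 9.4% and 5.35%. At an unadjusted p below 0.05, 3 were higher and 2 lower, where 23% and 15.8% of all genes were. At the adjusted p of 0.01, DESeq2 called 3 higher and 2 lower (14.2% and 10% of the 12444 genes to which it gave an adjusted p), and limma-voom called 2 higher and 1 lower (9.1% and 6.33% of all genes). Tlr2, a lipopeptide receptor, went from 11.8 to 17.0 CPM to 74.5 to 206 CPM (log2 fold change 3.41, adjusted p = 2.23e-05). The kinase gene Src went from 2.13 to 3.21 CPM to 18.8 to 73.3 CPM (log2 fold change 4.09, adjusted p = 2.74e-05). Tlr4, the LPS receptor, had a log2 fold change of -0.96 (adjusted p = 0.0346), which was -1.33 without ox-LDL replicate 1 (adjusted p = 0.00134). Its adjusted p was below 0.01 in 3 of 24 alternatives, this one among them. It was above 0.05 with any 1 control library left out (0.0508 to 0.0695) and without ox-LDL replicate 3 (0.0644) or 4 (0.0821). With library size alone it was 0.0912, and without control replicates 1 and 4 and ox-LDL replicate 2 it was 0.117.

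Of 12 genes for transcription factors and coregulators that act on receptor genes, 2 were called higher and 2 lower by edgeR (median 0.03). Over all genes tested the shares were 9.4% and 5.35%. DESeq2 called 2 higher and 3 lower (14.2% and 10% of genes with an adjusted p). By limma-voom 1 was called higher and 3 lower (9.1% and 6.33% of all genes). Pparg, the lipid-sensing receptor that drives Cd36, fell from 77.6 to 137 CPM in the controls to 14.1 to 29.0 CPM (log2 fold change -2.45, SE 0.24, adjusted p = 3.66e-05). Maf, a factor of mature macrophages, fell by 1.64 (adjusted p = 0.00189). Cebpb, an inflammatory factor, rose by 2.19 (adjusted p = 2.77e-04). Ppard rose by 2.14 (adjusted p = 0.00526) with ox-LDL replicate 2 (5.14 CPM) inside the control range, and its call was lost in 7 of the fits that left out 1 library, those without control replicates 1 to 4 or ox-LDL replicates 3 to 5 (adjusted p 0.0125 to 0.0177). Nr1h3, which encodes LXRα, and Spi1, which encodes PU.1, had log2 fold changes of -0.99 (adjusted p = 0.0559) and -0.31 (adjusted p = 0.344).

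Of 10 PPARγ target genes 8 were tested, with 1 called higher and 0 lower by edgeR (median 0.68; 9.4% and 5.35% of all genes). At an unadjusted p below 0.05, 4 were higher and 1 was lower (23% and 15.8% of all genes). DESeq2 called 3 higher and 0 lower (14.2% and 10% of genes with an adjusted p). By limma-voom 2 were called higher and 0 lower (9.1% and 6.33% of all genes). Acadl, a fatty acid oxidation enzyme, rose by 0.97 (adjusted p = 0.00135). The lipid chaperone Fabp4 was at 583 to 1600 CPM in the controls and 184 to 518 CPM in 4 ox-LDL libraries, with 1782 CPM in ox-LDL replicate 2. Its log2 fold change was -0.85 (adjusted p = 0.347) with all libraries and -1.94 (adjusted p = 0.00336) without that library. Of the lysosomal membrane genes and the LIMP-2 cargo, 9 were tested and 0 were called by edgeR in either direction (median 0.02). At an unadjusted p below 0.05, 3 were higher and 1 was lower (23% and 15.8% of all genes). For these 9 genes limma-voom called 0 in either direction (9.1% and 6.33% of all genes). DESeq2 called 2 higher and 1 lower (14.2% and 10% of genes with an adjusted p). Lamp1, a main lysosomal membrane protein, had a log2 fold change of -0.41 (adjusted p = 0.186).

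**Figure D4:**
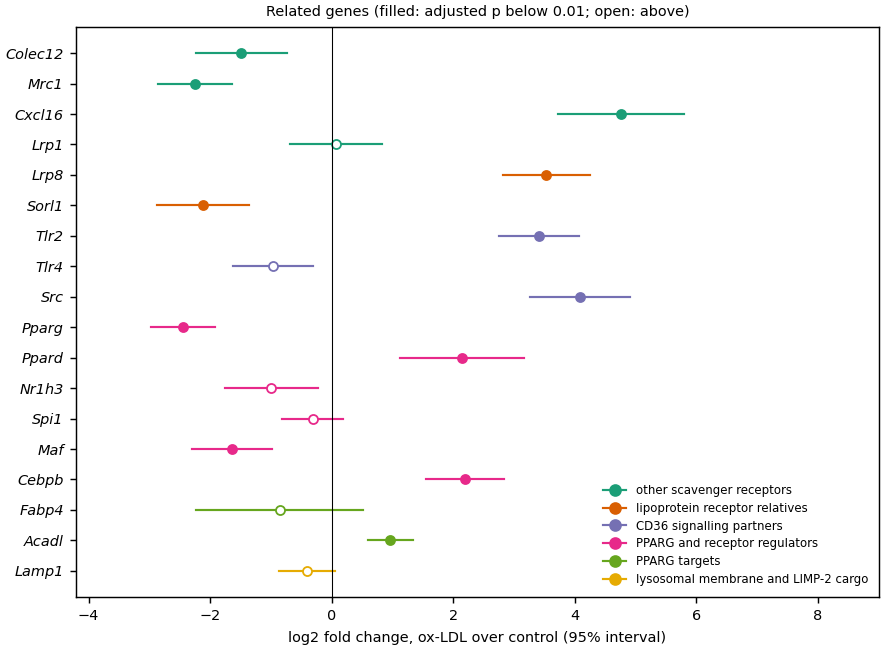
Fitted log2 fold change (ox-LDL over control, horizontal axis) with its 95% interval for the named genes of 6 related lists, coloured by list; filled points have an adjusted p below 0.01. Cxcl16 (4.76), Src (4.09), Lrp8 (3.53) and Tlr2 (3.41) lie furthest to the right, and Pparg (-2.45) furthest to the left.

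In bulk RNA, fewer cells that express a gene and less RNA per cell cannot be told apart. All 9 macrophage markers were present, Cd68 among them, and their summed level was 23170 to 42880 CPM in the controls and 13370 to 28400 CPM after ox-LDL, most of it Lyz2. The mean of Lyz2 was 28730 CPM in the controls and 14310 CPM after ox-LDL, whereas 6 of the 9 markers had a higher mean after ox-LDL, among them Adgre1 (291 and 1137 CPM), Csf1r (176 and 271 CPM) and Cd14 (91.1 and 370 CPM). The 8 endothelial markers with an entry, which bear on Olr1, Scarf1 and Stab1, summed to 9.84 to 33.0 CPM and 7.05 to 28.2 CPM, most of it Vwf, and 6 of the 8 had a higher mean after ox-LDL. Their defining gene Cdh5 averaged 0.120 CPM in the controls and 0.577 CPM after ox-LDL. The summed markers of mesothelial and stromal cells were higher after ox-LDL (16.1 to 53.1 against 61.5 to 144 CPM, led by Dcn). Of the 10, 7 had a higher mean after ox-LDL and 3 (Upk3b, Krt19 and Lum) a lower one. Among the 7, the means of Msln (0.111 and 0.114 CPM) and Krt8 (0.331 and 0.338 CPM) barely differed. The part of these cells in the receptor values was not tested. Markers of resident large peritoneal macrophages, which bear on Cd163, summed to 20.8 to 60.9 and 19.6 to 47.4 CPM, led by Fcna. Of these 8 markers, 4 had a higher mean after ox-LDL and 4 a lower one. The highest sum was in control replicate 4, also the highest library for Cd163. Next came ox-LDL replicate 2 (47.4 CPM), which held 0 reads of Cd163, and a link was not tested. Dendritic cell markers summed to 6.37 to 12.6 and 3.10 to 4.85 CPM, most of it Clec10a in the controls (mean 6.92 and 0.447 CPM), while 5 of the 8 had a higher mean after ox-LDL. Of the others, neutrophil markers summed to 7.67 to 38.7 and 2.23 to 11.6 CPM (mostly Mmp8). Of these 8, 4 had a higher mean after ox-LDL and 4 a lower one. B cell markers summed to 1.13 to 2.85 and 0.811 to 3.73 CPM, with 4 higher means after ox-LDL and 3 lower. T cell markers summed to 9.71 to 15.1 and 1.05 to 2.90 CPM, mostly Cd28 in the controls, where Cd3e was at 0. Of the 7 T cell markers, 6 had a higher mean after ox-LDL. Eosinophil and mast cell markers summed to 3.30 to 14.5 and 0.574 to 4.49 CPM, with 2 higher means after ox-LDL and 5 lower. No marker with an entry was at 0 in all libraries. These sums are scaled by library size alone.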

How the data were processed

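RNA was sequenced on the BGISEQ-500 platform. By the study's methods and the submitters' processing notes, FastQC was used for quality, HISAT2 (version 2.0.5) for alignment to mm9, SAMtools (version 1.4) for sorting and StringTie (version 1.3.3.13) for assembly. The authors deposited estimated counts per gene, not normalized (13.6% of values not whole), and a second value per gene and library that behaves as FPKM, since counts divided by it and by the library total give a nearly constant length per gene. The counting step and its use of strand are not given in the sources used here. Entries were 39488, of which 9788 circular RNAs (1.44% to 2.24% of counts) were left out; 22818 of 23382 NCBI identifiers matched a symbol in RefSeq's GRCm38.p6 table, used for names, and 6318 BGI identifiers have none. Gene positions came from the GENCODE annotation of NCBIM37.

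Counts were rounded, filtered by filterByExpr, scaled by TMM and tested with edgeR 4.0.16 (quasi-likelihood, robust, R 4.3.3) with Benjamini-Hochberg adjustment over 12654 genes, tested first on simulated data. Calls needed an adjusted p below 0.01. Standard errors came from the fold change and F. For single values all 252 arrangements of the libraries were enumerated (exact permutation). Alternatives were DESeq2 1.42.0, limma 3.58.1 (voom, and log2(FPKM + 1) for genes at 1 FPKM or more in at least 5 libraries), other scalings, filters and thresholds, the replicate block and each library left out. Marker lists of other cell types were summed. Named related genes were those called at 1 CPM or more, at most 4 in each direction in a list, plus Pparg, Nr1h3, Spi1, Lrp1, Mrc1, Tlr4, Lamp1 and Fabp4. Some genes of the related lists are not reported here and were left out of the list counts. Members and lists were chosen with earlier results of these data known. The p-values weigh the difference between the groups against the spread between these libraries.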

Additional observations from a re-analysis of the deposited data

Results flagged for a closer look

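Among 60 groups of 5 libraries examined, 6 had a library whose gap to its nearest neighbour, divided by the whole range, was above Dixon's limit of 0.71, where about 1 in 20 groups (3.0) would be by chance. Of the receptors, Cd163 was at 1.39 CPM in control replicate 4 against 0.513 to 0.652 CPM in the other controls (share 0.843). The log2 ratio of Cd36 to Msr1 was 1.18 in ox-LDL replicate 5, where the other 4 treated libraries lay at 2.66 to 3.02 (share 0.807).

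Of the related genes, Tlr2 was at 17.0 CPM in control replicate 3 against 11.8 to 13.2 CPM (share 0.722). Control replicate 5 was high for Ppard, at 9.90 CPM against 4.20 to 5.09 CPM (share 0.844). Spi1 was at 365 CPM in ox-LDL replicate 5 against 179 to 229 CPM (share 0.731), and Fabp4 was at 1782 CPM in ox-LDL replicate 2 against 184 to 518 CPM (share 0.791).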

How the results depend on the processing

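The number of receptors called higher was 2 or 3 under every alternative run. It was 2 without a filter on low counts, where Marco was lost and 1212 of 29267 genes were called higher. On log2(FPKM + 0.1) it was 2 too, where Scarf1 was lost and 588 of 29329 genes were called higher. The number of receptors called lower was 1 by edgeR as reported, beside 677 of all 12654 genes. Parentheses give the same count over all genes in each alternative. It was 2 by DESeq2 (1244 of 12444 genes) and with the gene length trend removed (1453 of 12654). At an adjusted p below 0.05 it was also 2 (1320 of 12654). Scarb1 was the receptor added each time. It was 0 with at least 10 counts in every library (518 of 10625). By limma on log2(FPKM + 1) it was also 0 (750 of 10470). Cd163 was left untested by the filter in both. With single libraries left out the number of receptors called lower was 1 to 2, the latter without ox-LDL replicate 2 (1502 of 12973). Msr1, Cd36, Cd68, Stab1 and Scarb2 kept their direction and stayed above the adjusted p of 0.01 in all 24 alternatives. On log2(FPKM + 1) the log2 fold change of Olr1 was 3.40, since the added constant shrinks low values. Among related genes, the calls of Colec12 and Ppard were lost in 13 of 24 alternatives each, that of Acadl in 4 and that of Maf in 1, with control replicates 1 and 4 and ox-LDL replicate 2 left out together.

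The median log2 fold change of all genes moved from 0.0966 under TMM to -0.0484 with upper-quartile factors and -0.0920 with library size alone. Lrp1, close to 0 as reported, was at -0.0544 with upper-quartile factors, -0.0953 with library size alone, -0.0031 without a filter, -0.44 with the length trend removed, -0.15 on log2(FPKM + 1), -0.16 on log2(FPKM + 0.1), -0.25 without control replicates 1 and 4 and ox-LDL replicate 2, and -0.24 to 0.26 with single libraries left out (-0.0857 without control replicate 1, -0.0340 without control replicate 4 and -0.24 without ox-LDL replicate 4).

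Whether the replicate numbers pair the libraries could not be told. Deviations from the group means correlated by -0.0393, -0.419, 0.512, -0.378 and 0.424 for numbers 1 to 5. These deviations also carry the gene length trend of each library described above. With the replicate block the adjusted p of Scarb1 was 0.0651, and 885 genes were called higher and 549 lower in place of 1189 and 677, and the receptors stayed at 3 and 1. The Cd36 to Msr1 difference was -1.20 in the block too, with an exact p of 0.0625, the smallest that 5 pairs can give, and -1.31 to -0.86 with single libraries left out. By DESeq2 1765 genes were called higher and 1244 lower, with library size alone 704 and 583, with the length trend removed 1403 and 1453, on log2(FPKM + 1) 555 and 750, on log2(FPKM + 0.1) 588 and 565, and without ox-LDL replicate 2 1755 and 1502. The causes were not tested. Omitting 2 or 3 doubted libraries was chosen after seeing the data. Depth limits Cd163, whose counts were at most 27.3.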
